A study of Homo sapiens with 6 samples.

Results

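Long noncoding RNAs are transcripts that are not translated into long proteins, and a LINC number is the symbol given to a gene of this class that lies between protein-coding genes and has no name from a known function. Such RNAs can act in the nucleus at the locus they are made from, act elsewhere as scaffolds for proteins or as binding partners of microRNAs, or have no role beyond the act of transcription. They are often made at low levels and in few tissues, and several are studied in bile duct, liver and other epithelial tumors. In the table of TFK1 cells examined here, 850 of 23569 listed genes carried a LINC symbol with 5 digits, and the 136 of them with a mean of at least 0.5 FPKM over the 6 libraries are described. The members were thus chosen by their symbol and by their measured level, not by their change. FPKM scales the fragments of a gene to its length and to the fragments counted in the library, so that levels can be compared between genes of different length.

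TFK1 is a cell line from a human bile duct carcinoma. RNA-seq was performed on TFK1 cells of the genotype negative control (oeNC, n = 3 libraries) and on TFK1 cells that overexpressed STUB1 (oeSTUB1, n = 3), with no further treatment. The paper describes its stable TFK1 populations as made with lentivirus and selected with puromycin. How many such populations were made per construct is not stated. The comparison asks which transcripts differ when STUB1, an E3 ubiquitin ligase that also acts as a co-chaperone, is raised, since the study places UHRF1 and the maintenance DNA methyltransferase DNMT1 downstream of it. The paper says in general that its experiments were independent and repeated at least 3 times, without naming the RNA-seq. Whether the 3 libraries of a group came from separate cultures is thus not stated. The p-values therefore measure the spread between these libraries, which may be technical.

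The libraries held 33106564 to 36744521 fragments. STUB1 itself was measured at 32.9, 33.0 and 30.9 FPKM in the oeNC libraries and at 61.4, 75.0 and 61.9 FPKM in the oeSTUB1 libraries. UHRF1 and DNMT1 transcripts differed by 0.27 and -0.03 on the log2 scale, with adjusted p-values of 0.13 and 0.90 from limma. The library oeSTUB1 replicate 2 stood apart, since the chi-square of its counts against those of its replicates, divided by the degrees of freedom, was 71.1 and 76.7, whereas the other pairs of replicates gave 3.37 to 9.82. Among the biliary markers, KRT8, KRT18 and KRT7 were abundant, with means of 2694, 3226 and 603.4 FPKM over all libraries, KRT19 was at 0.453 ± 0.0776 and 2.97 ± 0.454 FPKM in oeNC and oeSTUB1 cells (SD, n = 3), and CFTR was at or near 0. The summed level of the 9 listed biliary markers was 7473 to 8066 FPKM in oeNC and 4775 to 6344 FPKM in oeSTUB1 libraries, and of 8 tested 1 was higher and 4 were lower with an adjusted p under 0.05. Hepatocyte markers summed to 95.4 to 100.6 FPKM in oeNC and 55.0 to 74.9 FPKM in oeSTUB1 libraries, almost all of it FGB with ALB near 0, and leukocyte markers to 28.0 to 28.6 and 20.5 to 21.4 FPKM, mostly CD68. Fibroblast markers summed to 7.19 to 8.89 and 7.61 to 10.6 FPKM, and endothelial markers to at most 0.25 FPKM. The part of these differences in the results was not tested. In bulk RNA, fewer cells that express a gene and less of its RNA per cell cannot be told apart.

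The LINC RNAs were mostly of low abundance. Their means ran from 0.502 to 59.2 FPKM with a median of 1.33 FPKM, and 52 lay under 1 FPKM, 61 between 1 and 5 FPKM and 23 at 5 FPKM or more. All 136 were detected in each of the 6 libraries, and the median over the genes of their mean fragments per library was 99.3. The minimum of 0.5 FPKM chose the genes by their level in these same libraries, so the levels are given as a description. Just above it were LINC00470 at 0.502, LINC00526 at 0.504 and LINC00887 at 0.514 FPKM, and just below it LINC01126 at 0.495, LINC02043 at 0.492 and LINC01465 at 0.487 FPKM. None of these 6 had an adjusted p under 0.05. Low levels went with wide spread between replicates. The median coefficient of variation was 21.0% in oeNC and 25.0% in oeSTUB1 for genes with under 100 fragments on average, against 7.76% and 14.1% for genes with 100 or more. The median absolute log2 deviation of a LINC RNA from the mean of the other 2 oeSTUB1 libraries was 0.239, 0.339 and 0.223 for replicates 1, 2 and 3.

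Expression was compared with limma on log2(FPKM + 0.1), and a gene was counted as higher or lower at a Benjamini-Hochberg adjusted p under 0.05 over all 15353 genes tested, if its log2 fold change also exceeded 1 in size. The added 0.1 shrinks the fold changes of weakly expressed genes. By this rule 4 LINC RNAs were higher and 5 were lower in oeSTUB1 cells, which is 6.62% of the 136. Over all genes tested 5.20% were counted, with 2.79% higher and 2.40% lower, and among the 12608 genes that had the same minimum mean of 0.5 FPKM the shares were 4.07% in all, 2.09% higher and 1.97% lower. The share of LINC RNAs was thus near the background. An adjusted p under 0.05 with any fold was reached by 21 LINC RNAs (15.4%), 5 higher and 16 lower, beside 13.6% of all genes tested (7.01% higher and 6.59% lower) and 13.8% of those with at least 0.5 FPKM (7.08% higher and 6.69% lower). Leaving out oeNC replicate 1 lowered this count to 13 and leaving out oeSTUB1 replicate 2 raised it to 29. Over all genes tested the count moved the same way, from 2088 to 965 and to 4112. The 16 lower ones became 8, 10 and 9 without oeNC replicates 1, 2 and 3. In these runs 965, 933 and 1041 of all genes tested reached the adjusted p in either direction.

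The direction leaned to lower values. Of the 136 log2 fold changes, 84 were below 0 (61.8%), against 47.4% of all genes tested and 45.6% of those with at least 0.5 FPKM. Their median was -0.11 against 0.02 over all genes tested. All genes tested had more fragments, with a median of 691.5 per gene against 99.3 for the LINC RNAs. Among the 2745 tested genes with a mean of 0.1 to 0.5 FPKM, 55.2% were below 0, with a median of -0.09. The 3 values of each group did not overlap in 47 LINC RNAs, 33 lower and 14 higher. That is 34.6%, beside 38.8% of all genes tested (17.3% lower and 21.5% higher) and 40.1% of those with at least 0.5 FPKM (17.2% lower and 22.9% higher). The 115 LINC RNAs that did not reach the adjusted p had 95% intervals that in 90 cases lay within 1 log2 unit of 0 on both sides, so that a change of more than 2-fold on this scale lay outside the interval for these 90. For the other 25 the libraries did not settle a change of that size. The widest interval among the 10 lowest fold changes was that of LINC01775, which had a log2 fold change of -1.17 with an interval from -2.31 to -0.03 and an adjusted p of 0.16 from limma.

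**Figure D1:**
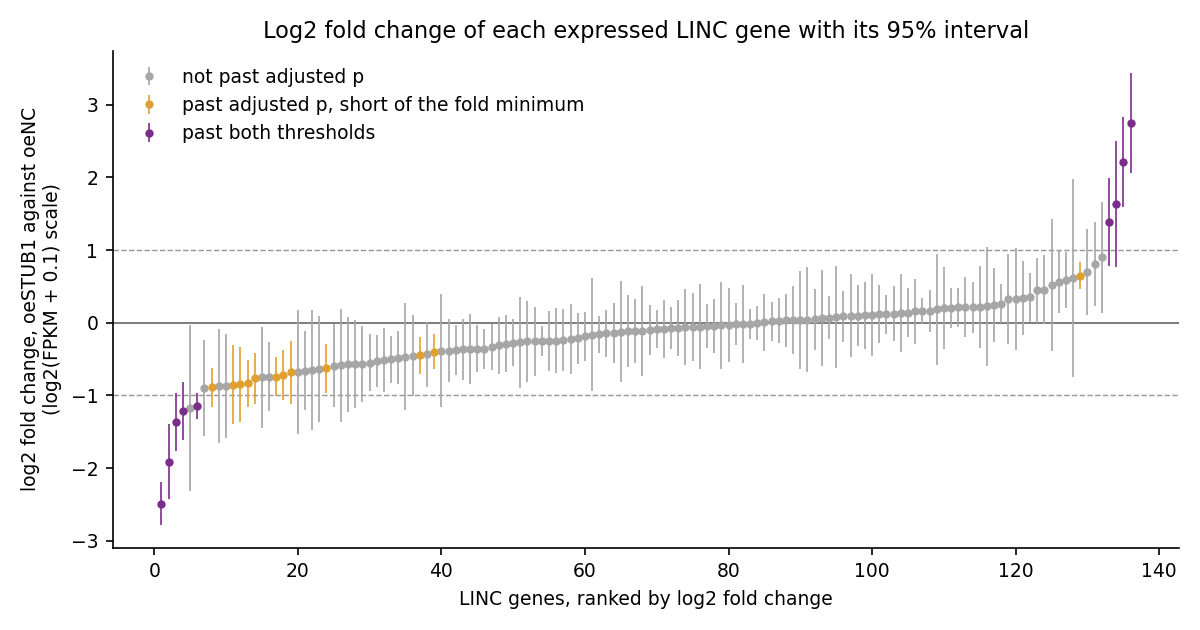
Log2 fold change of oeSTUB1 against oeNC for each of the 136 LINC genes, ranked from lowest to highest, with bars for the 95% interval from limma and color for the thresholds passed. The 9 genes past both thresholds lie at or near the ends, from -2.49 for LINC02212 to 2.75 for LINC00941, and most intervals cross 0.

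**Figure D2:**
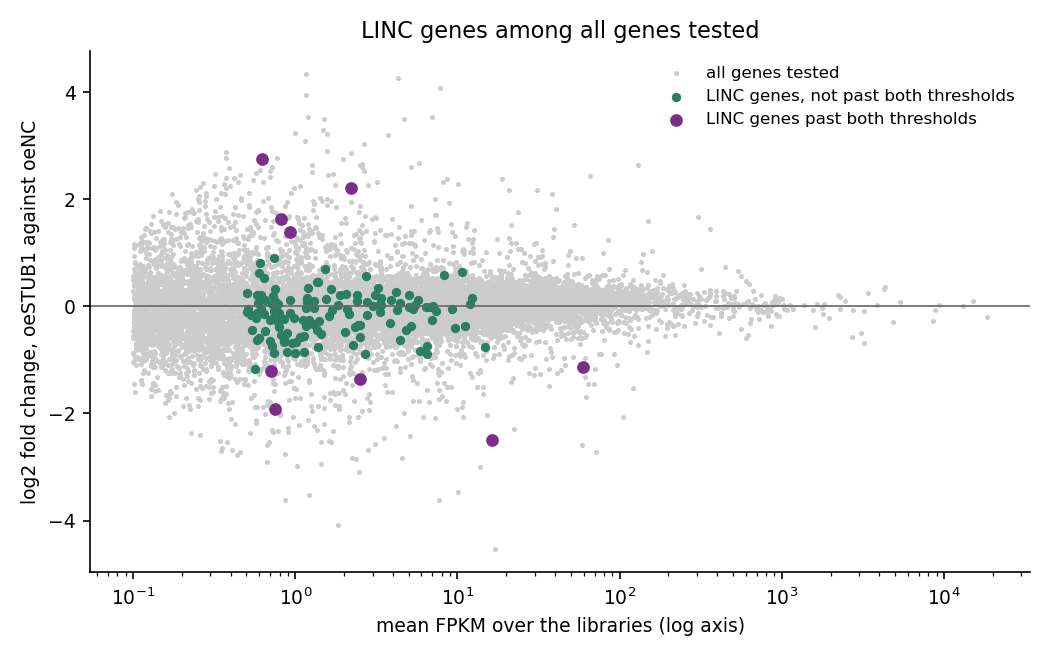
Log2 fold change (vertical axis) against mean FPKM over the 6 libraries (horizontal log axis) for the 15353 genes tested, with LINC genes in color. The LINC genes lie at the left, between 0.502 and 59.2 FPKM, inside the range of the other genes.

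Some of the genes reached 0.5 FPKM through 1 group only. The oeNC mean was under 0.5 FPKM in 6 and the oeSTUB1 mean in 7 of the 136, and a gene that passed through its higher group had to differ. These 13 hold 5 of the 9 LINC RNAs past both thresholds, namely LINC01806 and LINC00910, which were lower, and LINC00941, LINC01139 and LINC00920, which were higher. Of the 123 with at least 0.5 FPKM in both groups, 4 were past both thresholds (3.25%). LINC02212, LINC02732 and LINC02582 were lower and LINC00707 was higher. The matching share over all genes under this rule for both groups was not computed. The background shares given above used the mean over all libraries instead. Whether 3.25% is low or usual was thus not tested.

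LINC02582 was the most abundant of the 136 LINC RNAs and was lower after STUB1 overexpression. In other tumor cells its RNA has been described with the deubiquitinase USP7 and the checkpoint kinase CHK1. It was measured at 80.6, 83.0 and 80.6 FPKM in the oeNC libraries and at 37.4, 34.4 and 38.9 FPKM in the oeSTUB1 libraries. Each oeSTUB1 value was under 50% of each oeNC value, and the spread within a group was small beside the gap. The group means were 81.4 ± 1.40 and 36.9 ± 2.30 FPKM (SD, n = 3), which is 2.21-fold lower, and the log2 fold change was -1.14 with a standard error of 0.0761 (adjusted p = 0.00017, limma). The gene lies at chr18:73324941-73349878 on the plus strand (GRCh38, GENCODE release 29) with up to 3 exons per transcript. Its nearest protein-coding gene, NETO1, is 456795 bases away and was too low to be tested. LINC02864, which lies on the minus strand at chr18:73151241-73264480 and has the same nearest protein-coding gene, was the eighth most abundant, at 11.0 ± 0.371 and 8.35 ± 1.01 FPKM in oeNC and oeSTUB1 cells, and its log2 fold change was -0.40 (adjusted p = 0.043, limma).

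LINC02212 had the largest drop of the 136. Its values were 28.0, 26.7 and 28.5 FPKM in the oeNC libraries, from 2070, 1972 and 2227 fragments, and 4.31, 5.94 and 4.45 FPKM in the oeSTUB1 libraries, from 316, 419 and 324 fragments. The groups were far apart, and the highest oeSTUB1 value was that of replicate 2. The mean was 5.66-fold lower in oeSTUB1 cells, with a log2 fold change of -2.49 and a standard error of 0.127 (adjusted p = 7.9e-05, limma). It lies on the minus strand at chr5:10493527-10502728 with 3 exons. The nearest protein-coding gene is ROPN1L, which encodes a protein of the sperm flagellum. ROPN1L lies 21498 bases away, stood at 0.849 and 0.483 FPKM in the 2 groups and was also lower, by a log2 fold change of -0.70 (adjusted p = 0.024, limma).

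LINC02732, LINC00910 and LINC01806 were lower from smaller levels. LINC02732 was measured at 4.11, 4.16 and 2.74 FPKM in the oeNC and 1.43, 1.28 and 1.31 FPKM in the oeSTUB1 libraries. The 3 oeSTUB1 values were close together, while oeNC replicate 3 lay under its 2 replicates, and the log2 fold change was -1.36 with a standard error of 0.172 (adjusted p = 0.0023, limma). This gene is named AP000924.1 in GENCODE release 29, at chr11:110355130-110406400 on the plus strand, 23483 bases from FDX1, which encodes the electron carrier adrenodoxin.

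LINC00910 stood at 0.891, 1.04 and 1.17 FPKM in the oeNC and 0.442, 0.336 and 0.386 FPKM in the oeSTUB1 libraries, with a log2 fold change of -1.21 and a standard error of 0.172 (adjusted p = 0.0036, limma). It lies on the minus strand at chr17:43369845-43389199. LINC01806 was at 1.28, 0.983 and 1.43 FPKM in the oeNC and 0.171, 0.292 and 0.308 FPKM in the oeSTUB1 libraries, or 81 to 125 against 14 to 25 fragments. Its groups were well separated, with a log2 fold change of -1.91 and a standard error of 0.225 (adjusted p = 0.0016, limma). It lies on the plus strand at chr2:161244739-161249050, 8518 bases from TANK, an adaptor gene of NF-kappaB signaling. The 1031 tested genes of chromosome 2 had a median log2 fold change of -0.21.

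Of the 4 higher LINC RNAs, LINC00707 had the largest fragment numbers. It has been studied in gastric and lung cancer, where it was described to bind the RNA-binding protein HuR. The oeNC libraries gave 0.882, 0.714 and 0.514 FPKM and the oeSTUB1 libraries 4.94, 3.62 and 2.48 FPKM, from 58 to 94 and from 260 to 523 fragments. The lowest oeSTUB1 value was above the highest oeNC value, although the oeSTUB1 values spread widely. The means of 0.704 ± 0.184 and 3.68 ± 1.23 FPKM (SD, n = 3) differed 5.23-fold, with a log2 fold change of 2.21 and a standard error of 0.268 (adjusted p = 0.0019, limma). The gene lies on the plus strand at chr10:6779549-6879450, 199248 bases from PRKCQ, a protein kinase C gene.

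LINC00941 had the largest rise. It has been linked to SMAD4 and the epithelial-mesenchymal transition in colorectal cancer cells. In the oeNC libraries it was at 0.0912, 0.0609 and 0.0862 FPKM, from 6, 4 and 6 fragments, and in the oeSTUB1 libraries at 1.52, 1.31 and 0.664 FPKM, from 99, 82 and 43 fragments. Replicate 3 was the lowest oeSTUB1 library and still far above all oeNC libraries. The ratio of the mean FPKM was 14.6, whereas the log2 fold change was 2.75 with a standard error of 0.295 (adjusted p = 0.0011, limma), because the pseudocount of 0.1 FPKM exceeds the oeNC level. In GENCODE release 29 it spans chr12:30755167-30802602 on the plus strand and starts 216 bases from CAPRIN2, which is transcribed in the opposite direction and encodes an RNA-binding protein. The start in RefSeq is 40514 bases away from this one.

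LINC01139 and LINC00920 were higher from few fragments. LINC01139, also known as LINK-A and described as a scaffold for kinases in HIF1A signaling, was at 0.132, 0.603 and 0.409 FPKM in the oeNC and 1.16, 1.46 and 1.17 FPKM in the oeSTUB1 libraries, or 7 to 32 against 61 to 74 fragments. The oeNC values varied more than 4-fold, and the log2 fold change of 1.63 had a standard error of 0.375 (adjusted p = 0.027, limma). The adjusted p rose to 0.071 without oeNC replicate 3, to 0.067 without oeSTUB1 replicate 1 and to 0.063 without oeSTUB1 replicate 3. It lies on the minus strand at chr1:238476542-238486054.

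LINC00920, which was described with the transcription factor ERG in prostate cancer, was at 0.631, 0.316 and 0.477 FPKM in the oeNC and 1.59, 1.59 and 0.994 FPKM in the oeSTUB1 libraries, from 10 to 20 and 31 to 50 fragments. Its log2 fold change was 1.38 with a standard error of 0.262 (adjusted p = 0.013, limma). It lies on the plus strand at chr16:66408524-66412135, and the endothelial cadherin gene CDH5, 3738 bases away, was near 0 in both groups. With a pseudocount of 1 in place of 0.1, only LINC00707, LINC02212 and LINC02582 of the 9 stayed past both thresholds. Over all genes tested the share fell from 5.20% to 1.56%.

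**Figure D3:**
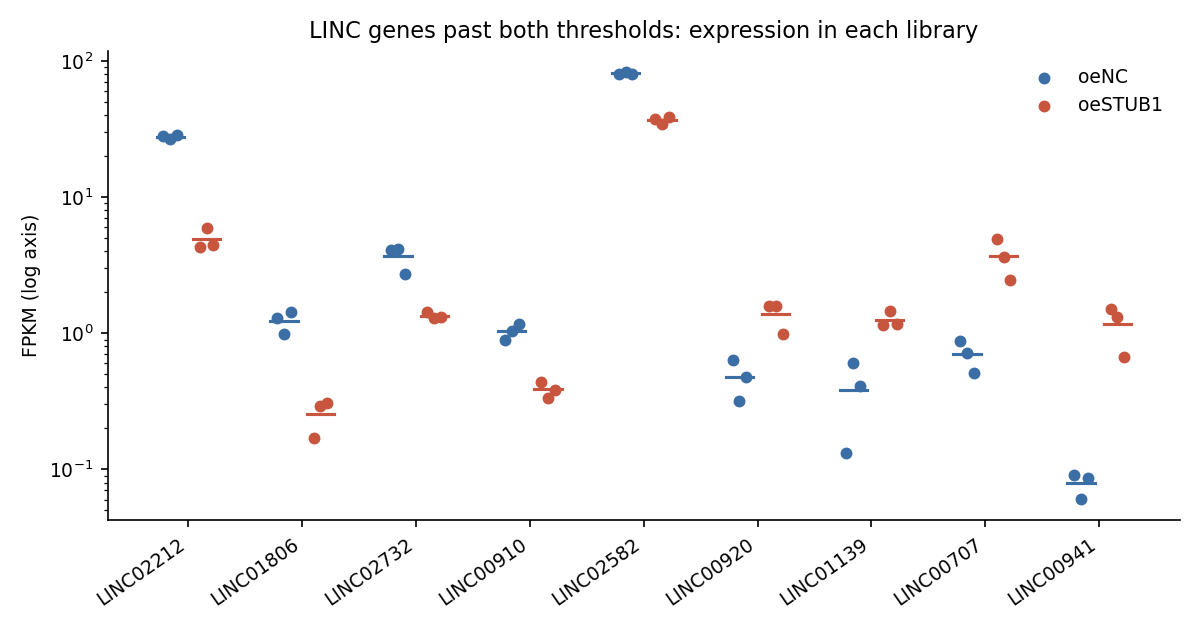
FPKM (log axis) of the 9 LINC genes past both thresholds in each of the 3 oeNC and 3 oeSTUB1 libraries, with a line at the group mean. The groups do not overlap in any of the 9, and LINC00941 rests on oeNC values under 0.1 FPKM.

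A further 12 LINC RNAs reached the adjusted p but not the fold minimum, 11 lower and 1 higher. The higher one was LINC01234, which has been described as a binding partner of miR-204-5p, with 8.56, 8.50 and 7.83 FPKM in the oeNC and 12.9, 13.3 and 13 FPKM in the oeSTUB1 libraries. Its oeSTUB1 values were nearly equal, and the log2 fold change was 0.65 with a standard error of 0.0784 (adjusted p = 0.0018, limma). Among the lower ones, LINC00997 went from 8.49 ± 0.302 to 4.56 ± 0.639 FPKM, LINC01273 from 7.48 ± 0.424 to 4.19 ± 0.806 FPKM and LINC02870 from 18.7 ± 3.15 to 11.0 ± 1.75 FPKM (SD, n = 3). The log2 fold changes of these 3 were -0.89, -0.84 and -0.77. LINC00173 went from 8.19 ± 0.565 to 4.88 ± 0.648 FPKM and LINC01504 from 2.84 ± 0.242 to 1.70 ± 0.288 FPKM, with log2 fold changes of -0.74 and -0.72. Without 1 oeNC library the adjusted p of LINC02870 reached 0.057 (replicate 1) and 0.059 (replicate 3), and that of LINC01504 ran from 0.058 to 0.082 (limma). LINC01881, LINC02893 and LINC00482 were near the threshold, with adjusted p-values of 0.0496, 0.045 and 0.048 from limma and means of 0.617 to 1.48 FPKM. LINC01273 and LINC01270 share CEBPB, a transcription factor gene on chromosome 20, as the nearest protein-coding gene. LINC01270 had a log2 fold change of -0.62 (adjusted p = 0.029, limma) and CEBPB of -0.24 (adjusted p = 0.28, limma).

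Other abundant LINC RNAs did not reach the adjusted p with all 6 libraries. LINC00473, a gene known to respond to the transcription factor CREB, was at 11.6 ± 0.464 and 13 ± 0.583 FPKM in oeNC and oeSTUB1 cells (SD, n = 3), with a log2 fold change of 0.16, an interval from -0.02 to 0.34 and an adjusted p of 0.22 from limma. LINC01433 was at 11.7 ± 2.42 and 12.1 ± 2.29 FPKM, with an interval from -0.37 to 0.47. LINC00467, which encodes a small peptide found with the mitochondrial ATP synthase, was at 12.5 ± 0.916 and 9.79 ± 2.12 FPKM, and its groups overlapped. Its log2 fold change was -0.37 (adjusted p = 0.14, limma) and ran from -0.54 to -0.24 as single libraries were left out. The adjusted p was 0.0057 without oeSTUB1 replicate 2.

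Of 30 LINC symbols chosen because they are known from other work, 14 were listed with a mean of at least 0.5 FPKM. Several of the rest, among them LINC00657, LINC00520 and LINC00998, were not listed under these symbols, which does not show that they were low. For none of the 14 was the adjusted p under 0.05, while 4 (28.6%) had an unadjusted p under 0.05. Over all genes tested 13.6% and 29.7% passed these rules. Nearest to the threshold were LINC00673, a gene near SOX9, at 6.61 ± 1.74 and 9.80 ± 0.527 FPKM (log2 fold change 0.59, adjusted p = 0.056, limma), and LINC01116, at 2.21 ± 0.535 and 3.24 ± 0.246 FPKM (log2 fold change 0.56, adjusted p = 0.086, limma). The adjusted p of LINC00673 was 0.0091 without oeNC replicate 3, 0.046 with limma-voom on the fragments and 0.049 with the replicate block. LINC00261, which lies beside the endoderm regulator FOXA2, was at 0.679 ± 0.0998 and 0.608 ± 0.0927 FPKM, with an interval of the log2 fold change from -0.55 to 0.27. LINC01133, of the same 30 but below the minimum at a mean of 0.129 FPKM, was past both thresholds (log2 fold change 1.53, adjusted p = 0.010, limma). Its oeNC libraries held 1, 0 and 1 fragments.

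The LINC RNAs together made up a small part of the libraries, and a smaller one after STUB1 overexpression. Their share of all fragments was 0.0991 to 0.102% in the oeNC and 0.0784 to 0.0877% in the oeSTUB1 libraries, with oeSTUB1 replicate 2 the lowest. Their FPKM summed to 460.3, 462.2 and 474.9 in oeNC and 366.9, 369.7 and 376.3 in oeSTUB1 libraries. LINC02582 alone supplied 17.0 to 18.0% of this sum in oeNC and 9.30 to 10.3% in oeSTUB1 libraries, and LINC02212 supplied 5.78 to 6.08% and 1.17 to 1.61%. Without these 2 genes the sums were 351.7, 352.5 and 365.9 in oeNC and 325.2, 329.4 and 333.0 in oeSTUB1 libraries, so the groups still did not overlap but lay closer. These sums include the values that chose the genes and were not tested.

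**Figure D4:**
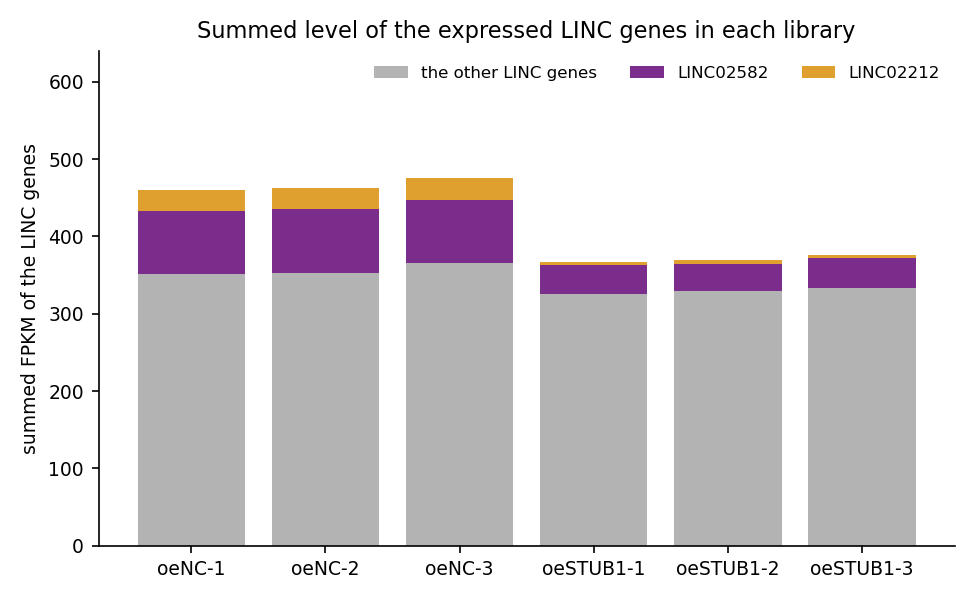
Summed FPKM of the 136 LINC genes in each library, divided into LINC02582, LINC02212 and the other 134 genes. The sum lies between 460.3 and 474.9 in oeNC and between 366.9 and 376.3 in oeSTUB1 libraries, and most of the gap is in the LINC02582 and LINC02212 segments.

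In GENCODE release 29, 127 of the 136 genes were found, 100 of them as lincRNA and 27 as other types, of which 2 are protein coding. Exon bases shared with another gene of the table were found for 14 genes, none of them among the 9 past both thresholds, although 6 of these 9 share exon bases with an annotated gene that the table does not list. Whether the counting used strand was not given in the sources used here, so reads of overlapping genes on opposite strands cannot be told apart. By chromosome, 10 of 12 LINC RNAs on chromosome 2 had a log2 fold change below 0, with a median of -0.51 beside a median of -0.21 over all tested genes there, 77.3% of which were below 0. All 8 LINC RNAs on chromosome 5 and all 6 on chromosome 7 were also below 0, each set with a median of -0.34. Over all tested genes of these chromosomes the medians were 0.06 and 0.05. On chromosomes 4 and 9, 1 of 5 and 2 of 6 LINC RNAs were below 0, beside 48.3% and 33.3% of all tested genes there. These chromosomes were named after their values were seen.

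The protein-coding genes next to the LINC RNAs were examined as well. A tested nearest protein-coding gene was found for 95 LINC RNAs, and the log2 fold changes of both had the same sign in 58 pairs (61.1%), with a Spearman correlation of 0.168 over pairs that come from the same 6 libraries. Of the 92 protein-coding genes in these pairs, 4 (4.35%) were past both thresholds, beside 5.20% of all genes tested, and none of these 4 was the neighbor of a LINC RNA that was. PARM1, which encodes a mucin-like membrane protein, went from 2.99 to 0.749 FPKM (log2 fold change -1.92, adjusted p = 0.0017, limma), while its neighbor LINC02562 had a log2 fold change of -0.24. The other 3 were ANXA8L1 beside LINC00842, ZNF717, which overlaps LINC00960 on the opposite strand, and PCDH7 beside LINC02506. For the LINC RNAs past both thresholds, 6 neighbors were tested and ROPN1L alone had an adjusted p under 0.05, a rule that 13.6% of all genes tested passed. CAPRIN2, TANK, FDX1 and PRKCQ had log2 fold changes of 0.03, -0.23, 0.01 and -0.28, with adjusted p-values from 0.16 to 0.98. Of 9 tested pairs in which a LINC RNA starts within 5000 bases of an oppositely transcribed protein-coding gene, 6 had the same sign.

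Promoter sequence was examined because DNMT1 methylates the cytosine of CpG dinucleotides, which UHRF1 recognizes in hemimethylated form. The RefSeq table (GRCh38.p14) held a window from 250 bases before to 50 bases after the start for 98 of the 136 genes, among them 5 of the 9 past both thresholds. These 5 windows are printed 5′ to 3′ on the strand of the gene with each CpG in capitals, since they show how far the promoters of the changed genes differ in CpG number. The windows are at chr5:10502679-10502978 (minus strand, 9 CpG) for LINC02212, chr2:161244489-161244788 (plus, 16 CpG) for LINC01806, chr17:43388849-43389148 (minus, 13 CpG) for LINC00910, chr16:66408274-66408573 (plus, 1 CpG) for LINC00920 and chr12:30795431-30795730 (plus, 21 CpG, at the RefSeq start) for LINC00941.
LINC02212: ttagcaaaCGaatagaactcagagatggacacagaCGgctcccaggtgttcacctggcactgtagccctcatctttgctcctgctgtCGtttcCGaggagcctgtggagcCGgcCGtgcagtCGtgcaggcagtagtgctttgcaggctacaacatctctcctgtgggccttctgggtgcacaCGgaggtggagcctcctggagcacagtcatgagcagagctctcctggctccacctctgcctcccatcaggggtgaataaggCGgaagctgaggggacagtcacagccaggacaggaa
LINC01806: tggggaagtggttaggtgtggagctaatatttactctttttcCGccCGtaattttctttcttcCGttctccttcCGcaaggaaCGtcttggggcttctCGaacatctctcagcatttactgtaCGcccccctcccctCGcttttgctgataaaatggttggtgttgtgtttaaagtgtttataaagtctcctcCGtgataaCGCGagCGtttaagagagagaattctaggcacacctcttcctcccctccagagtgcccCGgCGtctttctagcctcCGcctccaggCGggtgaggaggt
LINC00910: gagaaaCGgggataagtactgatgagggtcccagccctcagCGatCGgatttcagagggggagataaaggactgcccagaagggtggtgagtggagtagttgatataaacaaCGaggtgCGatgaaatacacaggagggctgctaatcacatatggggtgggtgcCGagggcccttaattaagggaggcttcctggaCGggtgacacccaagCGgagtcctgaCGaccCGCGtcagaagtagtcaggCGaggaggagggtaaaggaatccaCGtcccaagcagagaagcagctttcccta
LINC00920: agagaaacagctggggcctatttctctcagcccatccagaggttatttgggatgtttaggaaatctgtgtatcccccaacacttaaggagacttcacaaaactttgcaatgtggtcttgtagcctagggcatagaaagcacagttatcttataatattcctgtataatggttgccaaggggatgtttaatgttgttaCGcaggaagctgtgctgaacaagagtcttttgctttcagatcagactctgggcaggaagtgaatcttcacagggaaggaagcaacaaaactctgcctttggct
LINC00941: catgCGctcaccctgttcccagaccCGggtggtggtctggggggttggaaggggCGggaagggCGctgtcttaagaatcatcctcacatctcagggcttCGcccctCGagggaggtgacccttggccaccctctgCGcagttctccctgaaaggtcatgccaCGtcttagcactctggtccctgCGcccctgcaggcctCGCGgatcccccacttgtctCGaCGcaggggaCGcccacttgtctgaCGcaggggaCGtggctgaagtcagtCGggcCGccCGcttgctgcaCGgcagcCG
The windows of LINC01806 and LINC00910, both lower, contain the motif TATAAA, which was searched on both strands. The motif is in 11 of the 98 windows (11.2%), beside 11.5% of the 35116 promoter windows of the table. The printed windows range from almost free of CpG in LINC00920, which was higher, to 21 CpG in LINC00941, which was also higher. The windows follow RefSeq starts, which are 301 and 40514 bases from the GENCODE starts for LINC00910 and LINC00941. For LINC02212, LINC01806 and LINC00920 the starts are the same. Of 93 windows checked, 65 held bases after their start that were found in a GENCODE transcript of the same gene.

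Over the 98 windows the median was 15.5 CpG, with an observed over expected ratio of 0.589, and 45 windows (45.9%) were rich in CpG, taken as at least 50% GC with a ratio of at least 0.6. In all promoter windows of the table the share was 46.9%, and in those of the genes tested 77.4%. The 14 LINC genes with an adjusted p under 0.05 and a window had a median of 11.0 CpG and a ratio of 0.368, with 4 rich in CpG (28.6%). The other 84 had a median of 19 CpG and a ratio of 0.622, with 41 rich in CpG (48.8%). LINC02870 and LINC00997, both lower, had 1 CpG each, and LINC00173, also lower, had 18. Their RefSeq starts are 862, 1993 and 13 bases from their GENCODE starts. These differences in CpG were not tested, and DNA methylation was not measured in these libraries.

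**Figure D5:**
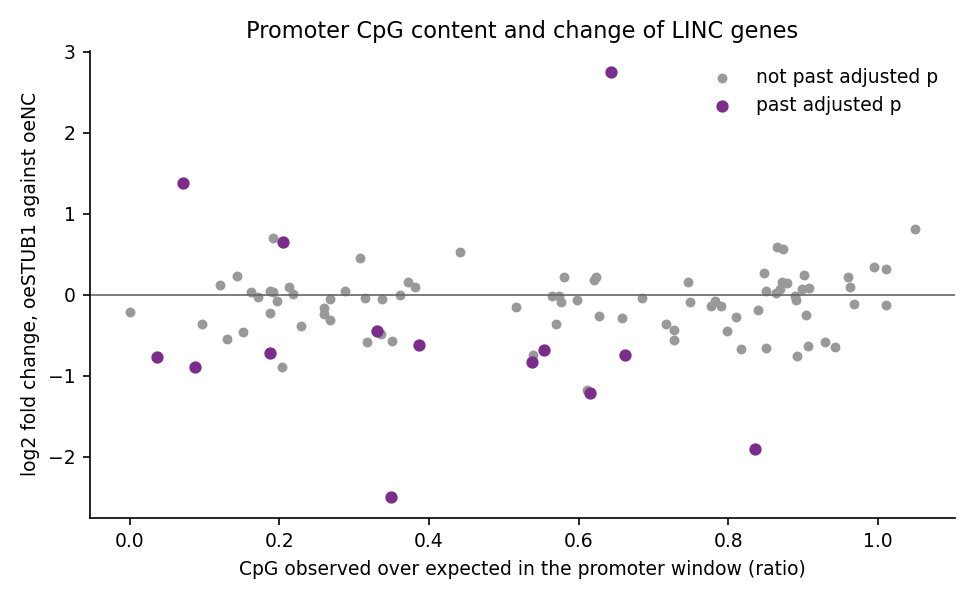
Log2 fold change of 98 LINC genes (vertical axis) against the CpG observed over expected ratio of their promoter window (horizontal axis), with genes of adjusted p under 0.05 in color. The 14 colored genes lie between ratios of 0.0359 and 0.835, and LINC00941 and LINC02212, the largest rise and the largest drop, are at 0.643 and 0.349.

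Long noncoding RNAs of other names gave similar shares past both thresholds, but not all leaned to lower values. Of 278 antisense RNAs that reached the same mean of 0.5 FPKM, 8 were higher and 8 lower by the same rule (5.76%), with a median log2 fold change of -0.09. Of these antisense RNAs 58.6% were below 0, and 15 were higher and 18 lower with an adjusted p under 0.05 (limma). A list of 44 named long noncoding RNAs without a LINC number, of which 33 were tested, held 2 that were higher and none that were lower past both thresholds, with 10 (30.3%) at an unadjusted p under 0.05, beside 29.7% of all genes tested. Of these 33, 45.5% were below 0, and their median log2 fold change was 0.05. MIR31HG, the host gene of miR-31, was at 3.02, 3.18 and 2.48 FPKM in the oeNC and 6.93, 7.94 and 7.34 FPKM in the oeSTUB1 libraries, and the log2 fold change was 1.33 (adjusted p = 0.00052, limma). The imprinted gene MEG3 was at 0.157 ± 0.0225 and 0.632 ± 0.202 FPKM, and the log2 fold change was 1.48 (adjusted p = 0.0067, limma). LUCAT1 and DGCR5 were lower with an adjusted p under 0.05, by log2 fold changes of -0.73 and -0.94. The 3 most abundant of this list, SNHG5, GAS5 and ZFAS1, were at 221.9, 108.6 and 86.1 FPKM over all libraries, each with overlapping groups.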

How the data were processed

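The authors deposited FPKM values for 23569 genes in 6 libraries of TFK1 cells, 3 per group. The submitters' processing notes name fastp 0.20.1, HISAT2 2.1.0, HTSeq 0.11.2, R 3.2.0, DESeq2 1.22.2 and the build GRCh38.p13, and the strand setting is not given in the sources used here. The sample labels gave the groups and replicates, and value columns of no mapped sample numbered 0.

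Whole fragments were recovered for 100.0% of the genes from the steps of the FPKM values, to within 4.9e-06 FPKM of the deposited values, though all 6 values of a gene may be too small by the same factor. Totals per library were 33106564 to 36744521 fragments. Intervals cover the spread between libraries, and fragment numbers carry counting error only.

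Two-sided tests were made on log2(FPKM + 0.1) with limma 3.58.1 (lmFit, then eBayes with its trend option; R 4.3.3) over the 15353 genes whose mean reached 0.1 FPKM, with Benjamini-Hochberg adjustment. In simulated oeSTUB1 and oeNC libraries with 200 genes changed 4-fold, 197 of the 199 that were tested were called with the right sign, with 3 unchanged genes called among 15343 tested. The simulation gave all genes the same spread beyond counting error, had no library that stood apart, and changed no genes with the fewest fragments. It does not measure how accurate the calls are in the real libraries, where oeSTUB1 replicate 2 stood apart.

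The LINC genes and the lists of other genes were chosen with earlier results of these data known. Named were STUB1, LINC genes past both thresholds, up to 8 per direction past the adjusted p alone, the 8 most abundant, 3 on each side of the minimum, those of a list of 30 known from other work, nearest protein-coding genes of LINC genes past both thresholds, and, of 44 other long noncoding RNAs, those past both thresholds and the 3 most abundant. LINC01775, LINC01270, LUCAT1, DGCR5 and the other neighbors named were added after their values were seen. The values of 1 neighboring gene are not reported here. Coordinates are those of GENCODE release 29 on GRCh38, and chromosomes and promoters those of RefSeq (GRCh38.p14). Alternatives were pseudocounts of 1 and 0.01, other filters, median-ratio and quantile scaling, no trend, a replicate block, limma-voom on the fragments, leaving out each library and other minimums.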

Additional observations from a re-analysis of the deposited data

How the results depend on the processing

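The 4 higher and 5 lower LINC RNAs were counted alike with a pseudocount of 0.01, with median-ratio or quantile scaling, without a trend, with limma-voom on the fragments and without genes that share exon bases with a listed gene (added after seeing the data). A pseudocount of 1 left 1 higher and 2 lower, with a median log2 fold change of -0.058 in place of -0.11. Over all genes tested it left 1.56% past both thresholds in place of 5.20%. A filter or a minimum at a mean of 1 FPKM, where 84 of the 136 genes remained, gave 1 higher and 3 lower with a median of -0.053. With that filter 3.38% of the 11375 genes tested were past both thresholds. Requiring 0.5 FPKM in both groups also gave 1 higher and 3 lower, and the share over all genes was not computed for this rule. A minimum of 0.25 FPKM gave 8 lower with a median of -0.14, and LINC02577 (mean 0.333 FPKM) joined the higher ones. Quantile scaling moved the median to -0.067, and dropping the fold minimum gave 5 higher and 16 lower. No filter left 3 higher, without LINC01139, and 3.19% of all 23569 genes past both thresholds. Leaving out each library gave 3 to 5 higher and 5 to 7 lower LINC RNAs and medians from -0.17 to -0.089. In these runs 4.07 to 5.45% of all genes tested were past both thresholds. Same-numbered libraries of the groups correlated by -0.0491, -0.0521 and 0.0617, and oeSTUB1 replicate 3 was the only oeSTUB1 library to correlate best with its own number, so the numbers were not taken as pairs. With the replicate block 4 LINC RNAs were higher and 5 lower, the median was -0.11, and 20 in place of 21 reached the adjusted p.

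The log2 fold change of STUB1, 1.03, fell under the minimum of 1 with quantile normalization (0.96), without oeNC replicate 3 (0.99) and without oeSTUB1 replicate 2 (0.93), with adjusted p-values from 3.9e-05 to 0.0060 from limma, and reached at most 1.08 when a library was left out. Of the 9 LINC RNAs past both thresholds, 3 (LINC00707, LINC02212 and LINC02582) stayed past them in every alternative run. Over the 37 named LINC genes, 514 of 542 alternative values kept their direction and their call by the adjusted p and fold minimum together, and 10 lost that call. By the adjusted p alone, 7 of 19 lost it in at least 1 alternative (LINC01139, LINC01881, LINC02893, LINC02870, LINC01504, LINC00482 and LINC02864), with up to 0.059, 0.082, 0.167 and 0.164 for the last 4, and of the other 18, LINC00467 (0.0057 without oeSTUB1 replicate 2) and LINC00673 (0.0091 without oeNC replicate 3) reached it (limma). LINC01881 (-1.07) and LINC02893 (-1.002) passed the fold minimum without oeSTUB1 replicate 3. Another 16 values changed sign, all in genes far from the adjusted p. LINC00472 was at 0.0081 with quantile normalization. With a library left out, LINC01433 ran from -0.059 to 0.21, LINC01503 from -0.089 to 0.28, LINC00472 from -0.20 to 0.10, LINC01003 from -0.19 to 0.023, LINC00470 from -0.34 to 0.028 and LINC00887 from -0.28 to 0.11. The cause of these moves was not tested. At a median of 99.3 fragments per gene, 25 LINC RNAs had intervals too wide to settle a 2-fold change.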

Other observations

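Below the minimum of 0.5 FPKM, 134 LINC genes with a mean of 0.1 to 0.5 FPKM were tested, and 16 of them (11.9%) were past both thresholds, 7 higher and 9 lower, beside 285 of 2745 (10.4%) of all tested genes in this range of levels, from a median of 10.3 fragments per library. LINC01605 was lower, at 0.462, 0.628 and 0.730 FPKM in oeNC and 0.192, 0.132 and 0.209 FPKM in oeSTUB1 libraries, from 92 to 154 and 25 to 41 fragments (log2 fold change -1.34, adjusted p = 0.0077, limma). LINC02577 was higher, with 22, 13 and 22 fragments in oeNC and 83, 84 and 88 fragments in oeSTUB1 libraries (log2 fold change 1.59, adjusted p = 0.0022, limma). LINC02418 had 37, 35 and 40 fragments in oeNC libraries and 1, 0 and 0 in oeSTUB1 libraries. LINC01322 had 13, 22 and 23 fragments in oeNC libraries and 1 in each oeSTUB1 library. LINC01133, described as a binding partner of the splicing factor SRSF6, had 1, 0 and 1 fragments in oeNC libraries and 10, 6 and 12 in oeSTUB1 libraries. A gene that reached a mean of 0.1 FPKM through 1 group alone had to differ. The first 4 of these genes were named after their values were seen, and LINC01133 is of the list known from other work.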
